A study of Bos taurus with 16 samples.

Results

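Prolactin and growth hormone act on the mammary gland through the same kind of relay, and 9 of its genes were followed here in biopsies of the bovine gland. They are the receptors PRLR and GHR, the kinases JAK1 and JAK2, the transcription factors STAT5A and STAT5B, and the feedback inhibitors SOCS1, SOCS2 and CISH. They were chosen by name, as the probe sets to which the array annotation gives exactly 1 symbol among these names, and each gene had 1 such probe set. They are thus 9 of the 18435 genes with a probe set of a single symbol. The study took mammary biopsies from 16 female cattle of the mountain breed Parda de Montaña, bred in Spain, at weaning, as the first lactation ended, and hybridised 1 array per heifer. In 8 heifers, called CON, a starter concentrate was given on top of the dam's milk up to 6 months of age. The other 8, called NOCON, had dam's milk alone, and both groups suckled 2 times a day for 30 min. From 6 to 15 months the heifers ate alfalfa hay and concentrate in a forage to concentrate ratio of 67 to 33 or 87 to 13, which the labels do not assign to single heifers, so it was not compared. All values are expression on the log2 scale as deposited, where a difference of 1 is a doubling.

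In this relay a hormone joins receptors at the cell surface, the JAK kinases bound to their tails phosphorylate each other and the receptor, and STAT5 proteins docked there are phosphorylated, pair and enter the nucleus. Work in mice has shown that prolactin, its receptor, JAK2 and STAT5A are needed for alveoli to form and to make milk, and casein genes are the best known STAT5 targets of the gland. STAT5 also switches on CISH and the SOCS genes, whose products block the receptor or the kinase and so close the loop. Abundance of an mRNA says nothing of phosphorylation, through which the relay carries its signal.

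The tissue carried the marks of a milk-producing gland. The means of the 6 milk protein genes CSN1S1, CSN1S2, CSN2, CSN3, LALBA and PAEP over the 16 arrays lay between 11.8 and 12.3, near the top of the scale, and 7 of 8 luminal epithelial markers were above the median of all probe sets. In 5 arrays the median correlation with the other arrays was more than 5 scaled median absolute deviations below that of the whole set. They are CON 2 (0.964), CON 6 (0.971), CON 7 (0.866), NOCON 1 (0.953) and NOCON 5 (0.974), against 0.986 or more on the other 11. CON 7 differed most. Its mean over the luminal markers, each gene centred over arrays, was the lowest of all at -0.59, its endothelial mean was also the lowest at -1.58, and its milk protein mean the highest at 0.12. The mean over myoepithelial and smooth muscle markers was the lowest on CON 7 too, at -0.57, and that over neutrophil markers the highest, at 0.49. NOCON 1 had the next lowest endothelial and myoepithelial means, -1.06 and -0.44, and the highest skeletal muscle mean, 0.43. The values of whole arrays were also less spread. Their interquartile range was 1.49 on CON 7, 1.68 on NOCON 1, 1.73 on CON 6 and 1.74 on CON 2. It was 1.98 on NOCON 5 and from 1.96 to 2.15 on the other 11. CON 7 had the highest array median, 4.57, followed by NOCON 1 with 4.34. The part of this narrower spread in the members' values was not tested. Results that rest on these arrays are therefore given with and without them.

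The feeding groups did not differ past the threshold in any of the 9 genes. With limma and Benjamini-Hochberg adjustment over all 26773 probe sets, 0 members passed an adjusted p of 0.05, where 0.0598% of all probe sets did, and 1 member (SOCS1) had an unadjusted p under 0.05, where 8.67% of all probe sets did. After adjustment the exact permutation test over all 12870 regroupings of the heifers passed 0 members, and 0 of all 26773 probe sets. Its smallest possible p, 0.000155, is coarse for an adjustment over so many, so this is no separate check. Before adjustment 1 member had an exact p under 0.05, where 10.4% of all probe sets did. In every one of the 9 genes the ranges of CON and NOCON overlapped, while they did not overlap for 0.176% of all probe sets. Means were lower in CON for 8 of the 9 genes, where 51.1% of all genes had a lower mean in CON, and higher for 1, GHR, where 48.9% of all genes had a higher one. This count moved with the arrays that stand apart. It was 6 of 9 without CON 7 and 5 of 9 without the 5 arrays, where 51.3% and 52.1% of all genes were lower. The median of the 9 differences was -0.16 on all arrays, -0.10 without CON 7 and -0.03 without the 5, and that of all genes was -0.0037, -0.0033 and -0.0037. Of the 8 luminal markers, 8 had a lower mean in CON, 7 without CON 7 and 6 without the 5 arrays. Their part in the members' differences was not tested. In a biopsy of whole tissue, fewer cells of a type and less RNA per cell cannot be told apart.

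The prolactin receptor gene PRLR had the smallest spread of the 9 over the 11 arrays of high correlation and the widest over all 16. In CON its level was 6.15 at the lowest, 8.51 at the median and 8.65 at the highest. The corresponding values in NOCON were 7.52, 8.48 and 8.64. The low values were single arrays, CON 7 and NOCON 1, followed by CON 6 (7.95) and CON 2 (8.01), and the groups overlapped. PRLR averaged 8.12 ± 0.84 in the 8 CON heifers and 8.39 ± 0.36 in the 8 NOCON heifers (SD). The log2 difference, CON minus NOCON, was -0.27 (SE 0.30, 95% interval -0.91 to 0.37, limma adjusted p = 0.771), and the exact permutation p was 0.531. Without CON 7 the difference was 0.01 and without the 5 arrays 0.06 (95% interval -0.06 to 0.17), so its direction turned. Over the 16 arrays PRLR had an SD of 0.64, wider than that of 84.1% of the 736 genes of like mean level. Over the 11 arrays its SD was 0.085, and only 4.3% of those genes had a smaller one.

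The growth hormone receptor gene GHR was the member with a higher mean in CON. Its level in CON ran from 4.18 through a median of 4.91 to 5.40. In NOCON the lowest, median and highest values were 3.90, 4.58 and 5.18. Of the 8 CON arrays, 7 lay above the NOCON median, the exception being CON 7, and 2 lay above the highest NOCON array. The CON mean was 4.92 ± 0.40 and the NOCON mean 4.62 ± 0.38 (SD, n = 8 each), a log2 difference of 0.30 (SE 0.18, 95% interval -0.09 to 0.69). It did not pass the test, with a limma adjusted p of 0.624 and an exact permutation p of 0.15. The estimate was 0.40 without CON 7 (exact permutation p = 0.0362, limma adjusted p = 0.49) and 0.38 without the 5 arrays (exact permutation p = 0.0433, limma adjusted p = 0.471). It was 0.43 when limma weighted the arrays by their spread (adjusted p = 0.18). Without NOCON 1 the estimate was 0.19. GHR was also variable among well-correlated arrays, where its SD of 0.32 exceeded that of 96.8% of 4387 genes of like level. It is a dim probe set, above the array's median on 14 of 16 arrays.

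The receptors can be set against each other within an array. Only a step common to both genes drops out of the difference, and the offset between both probe sets has no meaning. This comparison was chosen after the values were seen and is given without a test. GHR minus PRLR was -3.75 at the lowest, -3.25 at the median and -1.97 at the highest in CON. In NOCON it was -4.11, -3.72 and -3.46. Of the 8 CON arrays, 6 lay above the highest NOCON array, CON 2, CON 6 and CON 7 among them. On these PRLR fell more than GHR. Against the median of the 11 other arrays they were at -2.38 and -0.73 on CON 7, -0.585 and -0.216 on CON 6, and -0.53 and -0.15 on CON 2. On NOCON 1 both were at -1.02, and on NOCON 5 GHR was the lower (-0.39 against -0.04). How often other pairs of genes separate this far was not examined. The highest CON value was that of CON 7, the array with the lowest PRLR level, and without it CON ran from -3.75 to -3.13. Without the 5 arrays 3 of 5 CON arrays lay above the highest NOCON array.

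**Figure D1:**
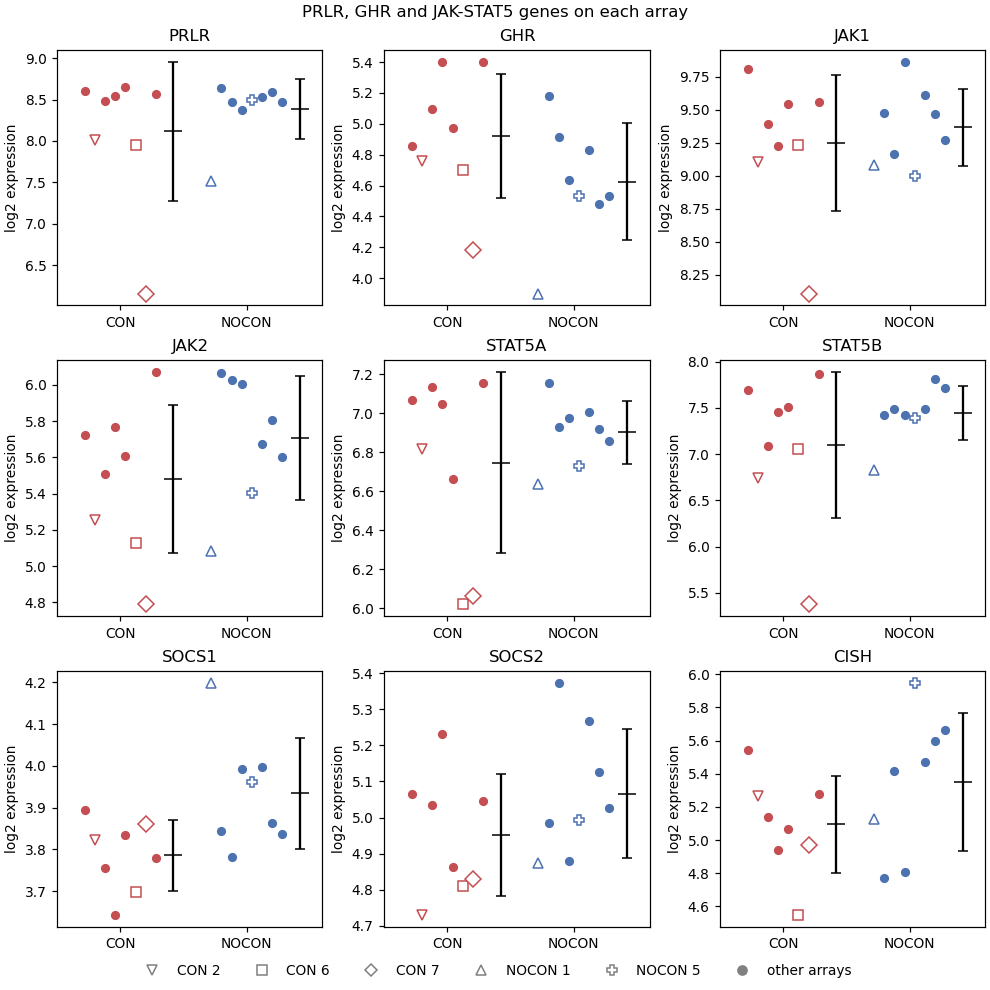
Expression of the 9 genes on each array, log2 scale, 1 panel per gene with its own axis. Points are single heifers, CON left in red and NOCON right in blue. Bars give the mean ± SD (n = 8), and open symbols are the 5 arrays of low correlation. PRLR and STAT5B are low on CON 7 (6.15 and 5.38) and NOCON 1 (7.52 and 6.83), and the groups overlap in every panel.

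The kinase JAK1 serves interferon and interleukin receptors in the main, and JAK2 is the kinase bound by both PRLR and GHR. JAK1 was 8.11, 9.32 and 9.81 in CON at the lowest, median and highest, and 9.0, 9.37 and 9.87 in NOCON. CON 7 was the lowest by far and the other 15 arrays spanned 0.87. The log2 difference was -0.12 (SE 0.20, 95% interval -0.54 to 0.30, limma adjusted p = 0.841, exact permutation p = 0.631), and 0.04 without CON 7. JAK2 ran from 4.79 through 5.56 to 6.07 in CON and from 5.08 through 5.74 to 6.06 in NOCON. Its 3 lowest CON arrays were CON 7, CON 6 and CON 2, its 2 lowest NOCON arrays NOCON 1 and NOCON 5, and 6 of 8 CON arrays lay below the NOCON median. The difference was -0.23 (SE 0.18, 95% interval -0.60 to 0.15, limma adjusted p = 0.678, exact permutation p = 0.248). It was -0.13 both without CON 7 and without the 5 arrays.

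STAT5A and STAT5B are closely similar proteins whose genes lie side by side, with 1 tRNA gene between them in the RefSeq annotation of the assembly ARS-UCD2.0. Whether their probe sets share RNA was not tested. STAT5A was 6.02, 6.93 and 7.15 in CON at the lowest, median and highest, and 6.64, 6.93 and 7.15 in NOCON. Medians and highest values were alike in both groups, and the spread of CON came from CON 6 (6.02) and CON 7 (6.06). The log2 difference was -0.16 (SE 0.16, 95% interval -0.51 to 0.19, limma adjusted p = 0.754, exact permutation p = 0.399), -0.06 without CON 7 and 0.04 without the 5 arrays. STAT5B was 5.38, 7.27 and 7.87 in CON and 6.83, 7.46 and 7.81 in NOCON. Its low arrays were CON 7, CON 2 (6.75) and NOCON 1. The difference of -0.35 (SE 0.28, 95% interval -0.93 to 0.24, limma adjusted p = 0.684, exact permutation p = 0.289) shrank to -0.10 without CON 7 and to -0.03 without the 5 arrays.

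On the arrays that stand apart the 2 STAT5 genes were not lower to the same degree. Against the median of the 11 other arrays, CON 6 was at -0.99 in STAT5A and at -0.44 in STAT5B. On that array 1.9% of the 10118 genes above the median level were as far below as STAT5A or further. CON 7 was at -0.94 in STAT5A but at -2.12 in STAT5B. In CON, STAT5A minus STAT5B was -1.03 at the lowest, -0.52 at the median and 0.69 at the highest, the last on CON 7. In NOCON it was -0.89, -0.52 and -0.19. Without the 5 arrays it ran from -0.85 to 0.04 in CON, the highest on CON 3, and from -0.89 to -0.27 in NOCON.

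Of the feedback inhibitors, SOCS1, which binds JAK kinases directly, came closest to the threshold. It was 3.64, 3.80 and 3.90 in CON at the lowest, median and highest, and 3.78, 3.91 and 4.20 in NOCON. All 8 CON arrays lay below the NOCON median and 4 of them below the lowest NOCON array, and the ranges still overlapped. SOCS1 averaged 3.79 ± 0.09 in the 8 CON heifers and 3.93 ± 0.13 in the 8 NOCON heifers (SD). The log2 difference was -0.15 (SE 0.06, 95% interval -0.28 to -0.02), with a limma adjusted p of 0.537 (0.0252 before adjustment). The exact permutation p was 0.0135 before and 0.355 after adjustment over all probe sets. SOCS1 was below the median of its array on 16 of 16 arrays, a level at which signal and background were not separated here. The difference was -0.16 without CON 7 and -0.10 without the 5 arrays (exact permutation p = 0.0996).

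SOCS2, which curbs growth hormone signalling in mice, was 4.73, 4.95 and 5.23 in CON at the lowest, median and highest, and 4.87, 5.01 and 5.37 in NOCON. The 4 lowest CON arrays lay just under the lowest NOCON array, and the other 4 were within the NOCON range. Of those 4 low arrays, CON 2, CON 6 and CON 7 stand apart. Its log2 difference was -0.11 (SE 0.09, 95% interval -0.30 to 0.07, limma adjusted p = 0.669, exact permutation p = 0.21), -0.06 without the 5 arrays and -0.07 without NOCON 3. CISH, the first described member of the family and a direct STAT5 target, was 4.55, 5.10 and 5.54 in CON and 4.77, 5.44 and 5.95 in NOCON. Of the CON arrays 7 of 8 lay below the NOCON median, and NOCON spread widely, with NOCON 2 and NOCON 4 low and NOCON 5 high. The log2 difference of CISH was -0.26 (SE 0.17, 95% interval -0.62 to 0.11, limma adjusted p = 0.635, exact permutation p = 0.178) and -0.09 without the 5 arrays. CISH varied more than most genes of its level, its SD of 0.32 over the 11 arrays exceeding that of 94.3% of 3200 genes.

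**Figure D2:**
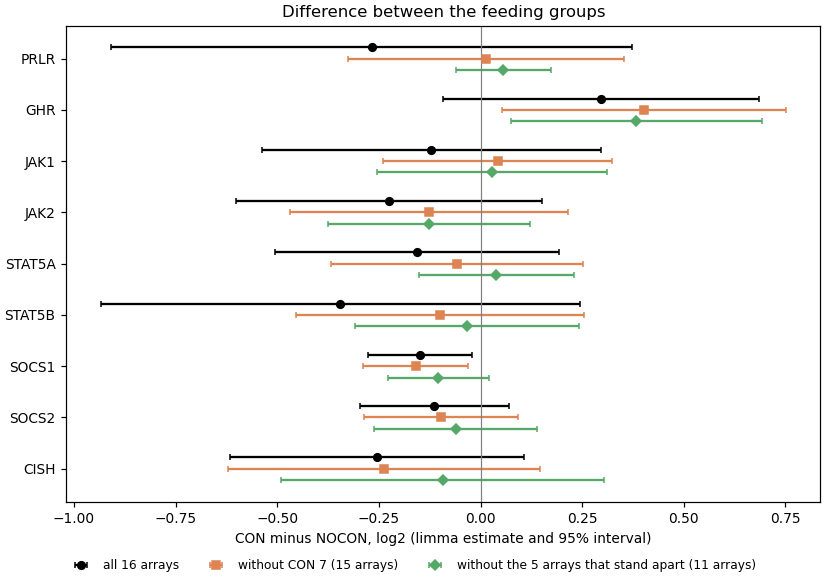
Difference of CON minus NOCON for each gene, log2 scale, with limma's 95% interval, from all 16 arrays (black), without CON 7 (orange) and without the 5 arrays of low correlation (green). PRLR moves from -0.27 to 0.01 and 0.06, GHR stays between 0.30 and 0.40, and the interval of SOCS1 lies below 0 in the first 2 fits.

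The arrays that stand apart differed in which members were low. On CON 7, PRLR lay 5.22-fold and STAT5B 4.33-fold below the median of the 11 other arrays, log2 values of -2.38 and -2.12. JAK1 was at -1.38, JAK2 at -0.98, STAT5A at -0.94 and GHR at -0.73, whereas CISH (-0.31), SOCS2 (-0.21) and SOCS1 (0.02) moved less. In all 7 members were below each of the 11 arrays, where 58.5% of the 10118 genes above the median level were. A fall as deep as that of PRLR was seen in 1.7% of those genes and one as deep as that of STAT5B in 3.5%. Both were thus among the strongest falls of that array, while JAK2 and STAT5A, with 26.0% and 27.3%, were not. These shares are not matched for level, and a dimmer gene has less room to fall.

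On NOCON 1 the receptors were lowest, PRLR and GHR both at -1.02, and JAK2 (-0.68) and STAT5B (-0.67) followed. There 6 members were below the 11 arrays, against 48.5% of the brighter genes, and SOCS1 was above all 11 at 0.36. On CON 6, STAT5A (-0.99), CISH (-0.73) and JAK2 (-0.64) were lowest and 6 members were below the 11 (41.0% of the brighter genes). On CON 2, STAT5B (-0.75) and PRLR (-0.53) were lowest and 5 members were below (40.5%). NOCON 5 was the mildest, with 2 members below (23.6%) and CISH above all 11 at 0.67.

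**Figure D3:**
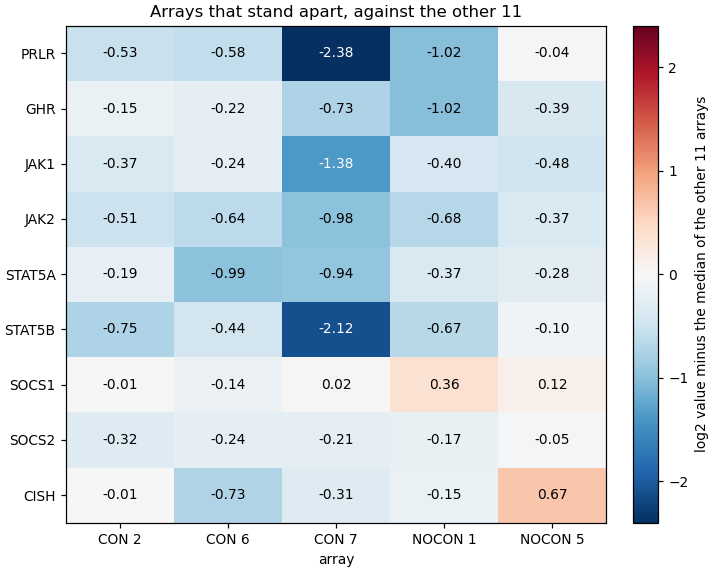
Level of each gene on each of the 5 arrays of low correlation, minus the median of the other 11 arrays, log2 scale. Blue is lower and red is higher. The deepest values are PRLR (-2.38) and STAT5B (-2.12) on CON 7, and CISH is above the 11 arrays on NOCON 5 (0.67).

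Over the 16 arrays the receptor PRLR, both kinases and both STAT5 genes went up and down together, as did many other brighter genes. Of the 36 pairs of members, 15 had a Pearson r with an adjusted permutation p under 0.05 (Benjamini-Hochberg over the 36), 14 positive and 1 negative, and 16 passed by Spearman's rho. The count by rho was 0 without CON 2, CON 7, CON 8 or NOCON 1 and 3 without CON 6 or NOCON 5, where that by r was 5 without CON 7 and 12 to 14 without any other of these. All 10 pairs among PRLR, JAK1, JAK2, STAT5A and STAT5B were in the first count, with r from 0.67 to 0.94, and 9 of them passed by rho, the exception being STAT5A with STAT5B (rho = 0.48, adjusted permutation p = 0.119). CISH was in none of these pairs. Brighter genes as a whole moved with these arrays. The median r of PRLR with the 10116 other genes above the median level was 0.52, and it was 0.39 without CON 7 and 0.03 without the 5 arrays. Of those genes 18.31% had as high an r with PRLR as JAK1 did, 24.09% as JAK2 and 29.07% as STAT5A. Over the 10 pairs, taken from either gene, such shares ran from 0.19% (r with STAT5B as high as that of PRLR) to 32.21% (r with STAT5B as high as that of STAT5A).

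PRLR and STAT5B were the closest pair, with r = 0.94 (permutation p = 6e-05, adjusted 0.00099) and rho = 0.73 (permutation p = 0.00207, adjusted 0.0258). Without the 2 arrays farthest from the PRLR median r was 0.76. Within CON r was 0.96 (exact permutation p = 0.00146, n = 8), within CON without CON 7 it was 0.81 (exact permutation p = 0.0181, n = 7), and within NOCON 0.86 (exact permutation p = 0.039, n = 8). Without CON 7 it was 0.80 over 15 arrays. Over the 11 arrays it was 0.32 (permutation p = 0.334), so the relation rested on the arrays that stand apart. Among the other brighter genes, 3.18% had as high an r with PRLR as STAT5B did, and 0.19% as high an r with STAT5B as PRLR did.

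JAK2, the kinase both receptors use, passed with 6 of the 8 other members. Seen from JAK2, such values were common among brighter genes. Between 15.53% (STAT5A) and 41.49% (SOCS2) of 10116 of them had as high an r with JAK2 as these 6 members did, and their median r with JAK2 was 0.48. Seen from the 6 members, the share with as high an r as JAK2 ran from 1.84% (STAT5A) to 24.09% (PRLR). With STAT5A, JAK2 gave r = 0.81 (permutation p = 0.00011, adjusted 0.00099) and rho = 0.77 (permutation p = 0.00075, adjusted 0.0258), with r = 0.84 within CON and 0.88 within NOCON. With STAT5B r was 0.80 (permutation p = 0.00011, adjusted 0.00099) and rho 0.71 (permutation p = 0.00308, adjusted 0.0277), with 0.91 within CON and 0.58 within NOCON. Over the 11 arrays r was 0.36 for JAK2 with STAT5A and 0.28 for JAK2 with STAT5B. For PRLR with JAK1 r was 0.84 over all arrays, 0.49 without CON 7 and 0.04 over the 11. It was 0.95 within CON, 0.73 within CON without CON 7 and 0.35 within NOCON.

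Without CON 7, 5 of the 36 pairs passed, namely PRLR with JAK2 (r = 0.75), PRLR with STAT5B (0.80), JAK2 with STAT5A (0.71), JAK2 with STAT5B (0.74) and GHR with SOCS1. Without the 5 arrays 0 pairs passed by Pearson's r or by rho, 2 had an unadjusted permutation p under 0.05 (GHR with SOCS1, and JAK1 with SOCS1 at r = 0.74), and the 10 pairs among PRLR, JAK1, JAK2 and the STAT5 genes had r between -0.16 and 0.36. Within CON 11 pairs passed by r and 0 by rho, within CON without CON 7 it was 0, with 8 at an unadjusted exact permutation p under 0.05, and within NOCON it was 0, with 10 unadjusted.

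**Figure D4:**
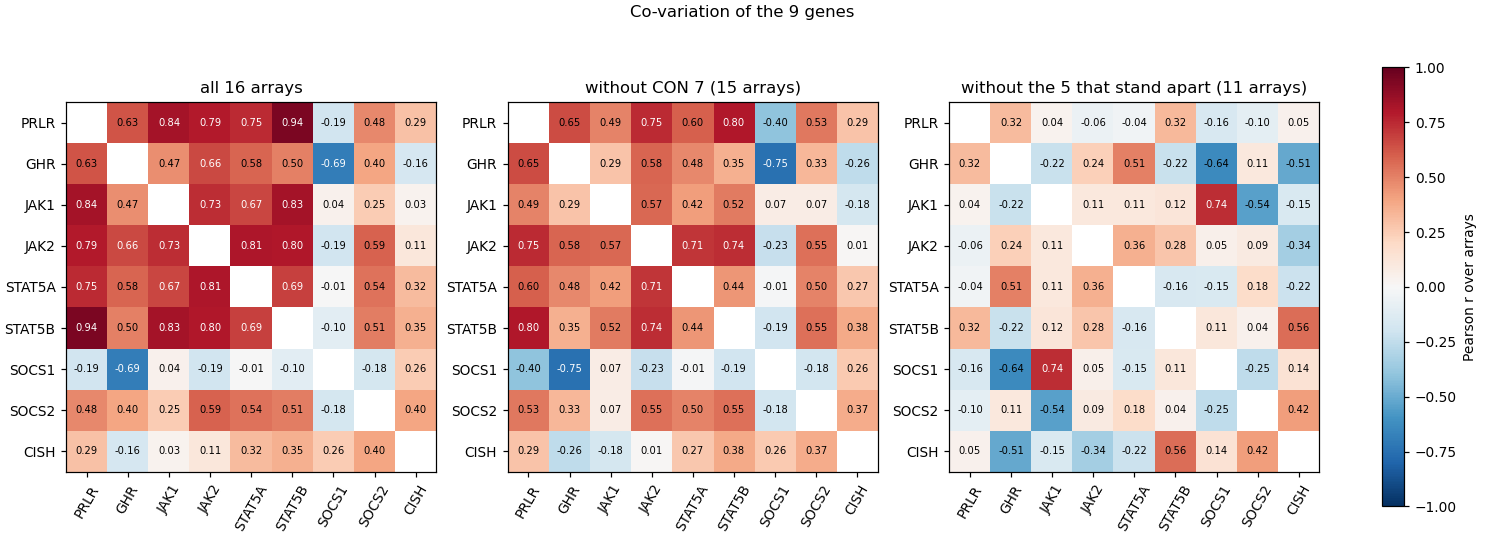
Pearson r of each pair of the 9 genes over 16 arrays (left), over 15 without CON 7 (middle) and over 11 without the arrays of low correlation (right). Red is positive and blue is negative. The block of PRLR, JAK1, JAK2, STAT5A and STAT5B, 0.67 to 0.94 at the left, lies between -0.16 and 0.36 at the right, and GHR with SOCS1 stays between -0.64 and -0.75.

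GHR and SOCS1 formed the only called pair that ran in opposite directions. The r was -0.69 (permutation p = 0.00375, adjusted 0.0169) and rho -0.63 (permutation p = 0.0106, adjusted 0.0426). Arrays with high GHR, CON 4 (5.40) and CON 8 (5.40), had low SOCS1 (3.64 and 3.78), and NOCON 1, lowest in GHR (3.90), was highest in SOCS1 (4.20). It was -0.75 without CON 7. It was -0.64 over the 11 arrays and did not pass (permutation p = 0.0326, adjusted 0.587). Without NOCON 1 it was -0.50 and did not pass (adjusted permutation p = 0.132). Within CON r was -0.52 (exact permutation p = 0.189, n = 8) and within NOCON -0.73 (exact permutation p = 0.0488, n = 8). It also did not pass after centring each array on its median (-0.27) or after a further quantile normalization (-0.24). The SOCS1 signal is dim, as given above.

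Set against markers of cell types, 1 of 36 relations passed (9 members by the means of the luminal, adipocyte, fibroblast and milk protein lists). SOCS2 ran opposite to the mean of 6 adipocyte markers, with r = -0.74 (permutation p = 0.00095, adjusted 0.0342) and rho = -0.84 (permutation p = 0.00011, adjusted 0.00396). Within CON r was -0.83 (exact permutation p = 0.0163, n = 8) and within NOCON -0.57 (exact permutation p = 0.141, n = 8). Without the 2 arrays farthest in SOCS2 it was -0.77, and over the 11 arrays -0.60 (permutation p = 0.0515). The negative r of the mean lay with the dim genes of the list. ADIPOQ, the adipocyte hormone adiponectin, gave -0.83 with SOCS2, and PLIN1 (-0.53), LEP (-0.54) and CIDEC (-0.51) were also negative, all 4 with means below the median of all probe sets. FABP4 and LPL, both bright here with means of 10.8 and 10.5, gave 0.24 and 0.28. After centring on the array median r was -0.09, after quantile normalization -0.35, and neither passed. When 1 array was left out r stayed between -0.78 and -0.71, and it passed in 4 of the 16 cases by r (without CON 3, CON 8, NOCON 3 or NOCON 4). Without CON 7 it passed by rho (-0.82, adjusted permutation p = 0.0108) and not by r. Over the 11 arrays rho was -0.64 and did not pass (adjusted permutation p = 0.365).

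**Figure D5:**
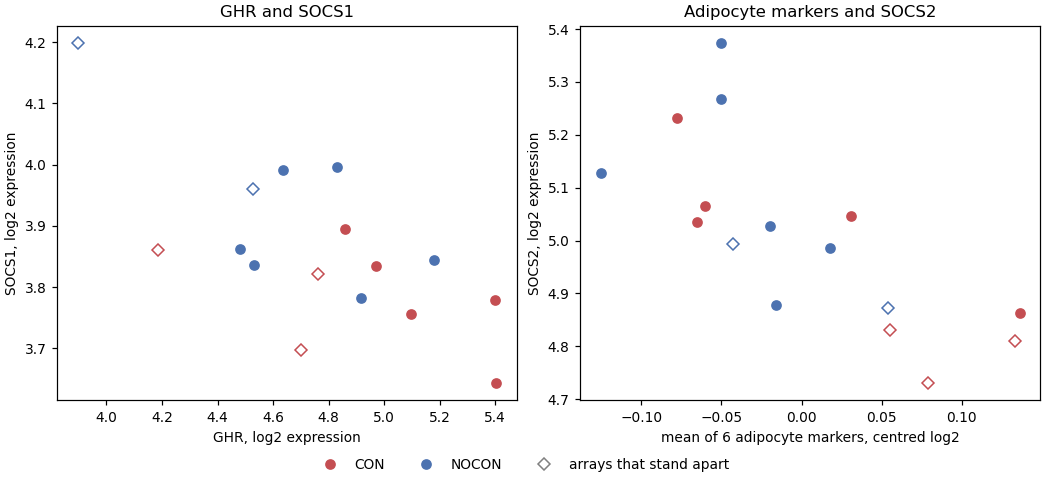
Left, SOCS1 against GHR, log2 scale. Right, SOCS2 against the mean of 6 adipocyte markers, each gene centred over arrays. Points are the 16 arrays, CON in red and NOCON in blue, with the 5 arrays of low correlation as open diamonds. Both panels fall, with r = -0.69 and r = -0.74.

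PRLR gave r = 0.68 with the luminal marker mean, but its rho was -0.11 and its r without CON 7 -0.03, and it did not pass. Over the 11 arrays r was -0.74 (permutation p = 0.00853, adjusted 0.307), the opposite direction. The luminal mean was between -0.59 (CON 7) and 0.09 in CON, and between -0.05 and 0.34 in NOCON. The adipocyte mean was between -0.08 and 0.14 in CON, and between -0.12 and 0.05 in NOCON.

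For each member the 3 genes of most similar pattern were taken by Pearson's r over the 16 arrays from the 10117 other genes above the median level (10118 for SOCS1). The 11 arrays are part of these 16, so an r over the 11 is no separate check of the likeness. Members also differ in spread over the 11, with an SD of 0.085 for PRLR, 0.205 for JAK2 and 0.316 for GHR. PRLR was followed by PSMD7, a proteasome subunit (0.99), COPB2 of the vesicle coat (0.99) and the tRNA synthetase gene EPRS1 (0.99). Over the 11 arrays their r fell to 0.62, 0.44 and 0.03. For JAK2 the fall was smaller. WDR48 (0.98), AZIN1 (0.96) and ESRP1, an epithelial splicing factor (0.95), gave 0.93, 0.85 and 0.76 over the 11 arrays. For JAK1 they were ALDH6A1 (0.93), TMC5 (0.92) and ILKAP (0.92), with 0.74, 0.94 and 0.83 over the 11. STAT5A was most like MAT2B (0.90), CCDC91 (0.90) and EZH2 (0.89), and STAT5B was most like CD2AP (0.96), OARD1 (0.96) and the transcription factor gene FOXO3 (0.95). Their r over the 11 arrays were 0.56, 0.31 and 0.50 for STAT5A and 0.60, 0.61 and 0.77 for STAT5B. Neither STAT5 gene was among the 3 of the other. GHR had DENND1B (0.91), PTPRG (0.90) and UBXN7 (0.90), with 0.79, 0.82 and 0.83 over the 11 arrays. For the inhibitors the first of the 3 was the microRNA gene MIR425 for SOCS1 (0.89, and 0.83 over the 11 arrays), ZNF131 for SOCS2 (0.84 and 0.83) and THOC7 for CISH (0.80 and 0.85).

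The rest of the pathway was read from lists of ligands, other kinases, STATs, SOCS genes, phosphatases and PIAS proteins, adaptors, STAT5 partners and targets, and other receptors that use JAK1 or JAK2. Of 56 listed genes 53 had a probe set, and 0 passed an adjusted limma p of 0.05, where 0.0108% of all genes did. An unadjusted p under 0.05 was found for 5 of them, where it was found for 7.92% of all genes, 3 higher and 2 lower in CON. Means were lower in CON for 33 and higher for 20, where 51.1% of all genes had a lower mean in CON. The median difference was -0.04, where that of all genes was -0.0037. This count was not repeated without the 5 arrays, and single differences turned there, as that of SOCS6 did (-0.08 to 0.19).

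PRL and GH1 encode hormones made mainly in the pituitary, and both probe sets were dim here. PRL was 3.71 ± 0.17 in CON and 3.65 ± 0.06 in NOCON, and GH1 was 4.12 ± 0.19 in CON and 4.24 ± 0.16 in NOCON (SDs over 8 heifers, here and for the genes that follow). The 2 lowest p-values among adaptors belonged to SH2B1, which binds JAK2 and enhances its activity, and its relative SH2B2. SH2B1 was 5.57 ± 0.28 in CON and 5.84 ± 0.14 in NOCON, a log2 difference of -0.27 (SE 0.11, exact permutation p = 0.0261, limma adjusted p = 0.537), and -0.12 without the 5 arrays. SH2B2 differed by -0.14 (SE 0.06, exact permutation p = 0.0295, limma adjusted p = 0.557), from a dim probe set.

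Among STAT5 partners and targets 2 of the 4 casein genes had the smallest p. CSN1S2 was 11.89 ± 0.10 in CON and 11.78 ± 0.04 in NOCON, a log2 difference of 0.12 (SE 0.05, exact permutation p = 0.00357, limma adjusted p = 0.537). CSN2, the beta-casein gene, was 12.38 ± 0.06 in CON and 12.27 ± 0.08 in NOCON, a difference of 0.10 (SE 0.05, exact permutation p = 0.0014, limma adjusted p = 0.557). After adjustment over all probe sets the exact p was 0.248 for CSN1S2 and 0.195 for CSN2. Both sit near the top of the scale, where differences can be compressed, which was not measured here. The difference of CSN1S2 was 0.09 without CON 7 and 0.05 without the 5 arrays, and that of CSN2 was 0.10 and 0.11. The other casein genes, named after their values were seen, differed by -0.012 (CSN1S1, limma adjusted p = 0.961) and 0.055 (CSN3, limma adjusted p = 0.777).

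CSF2RB, the shared receptor chain for GM-CSF and related cytokines and a partner of JAK2, was 10.47 ± 0.39 in CON and 10.14 ± 0.23 in NOCON. Its difference of 0.33 (SE 0.15, exact permutation p = 0.0615, limma adjusted p = 0.574) was 0.45 without the 5 arrays. EPOR, the erythropoietin receptor gene, was dim and differed by -0.12. The other JAK kinases TYK2 and JAK3 differed by 0.15 and 0.13, and among STATs STAT6 differed by -0.14 and STAT2 by 0.17. SOCS7 and SOCS6 differed by -0.11 and -0.08, SOCS6 by 0.19 without the 5 arrays, and the phosphatase gene PTPN6 and the STAT inhibitor gene PIAS4 by -0.18 and -0.11. Adjusted limma p-values of these 9 genes lay between 0.595 and 0.89.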

How the data were processed

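Per the labels' protocols, column-purified RNA of needle biopsies was made into biotinylated cRNA for Affymetrix arrays. The values used are the authors' deposited log2 values of 26773 probe sets on 16 arrays. The submitters' processing notes name GCOS and RMA but no version. The sources used here do not state the log base, which was read as 2 from the range of the values. RMA subtracts background, normalizes arrays to each other and compresses differences of dim probe sets. Differences of probe sets near saturation can be compressed as well, apart from RMA, which was not measured here. No scanner files or detection calls were used. The number of arrays limits the precision.

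Symbols came from the platform annotation, in which 18790 probe sets have 1 symbol, 385 several and 7598 none, and all 9 members matched RefSeq (ARS-UCD2.0) by gene ID. For genes with several probe sets the brightest was taken. CON was tested against NOCON with limma 3.58.1 in R 4.3.3 with no covariate, and p-values were adjusted over all probe sets by Benjamini-Hochberg. p-values rest on the spread between heifers, which holds that of biopsy and array. Exact permutation tests used all 12870 regroupings (smallest two-sided p 0.000155). Correlations over arrays used 100000 resamples, two-sided, adjusted over each family of 36 relations, and exact enumeration within groups. Intervals are limma's 95% intervals. The fit was tested on simulated data with 200 changed genes.

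Members and lists were chosen with earlier results of these data known. Named are all members, the 2 genes per list with the smallest p, and the 3 genes most like each member. Myoepithelial, endothelial, immune, erythrocyte and skeletal muscle lists were also examined, with 0 genes passing by limma, and 0 at an unadjusted p under 0.05, in each. The luminal, adipocyte and fibroblast lists had 0 passing, and 1 luminal gene at an unadjusted p under 0.05. Alternatives were a filter, array weights, trend, centring, quantile normalization, a replicate block, probe set means, the exact test and arrays left out.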

Additional observations from a re-analysis of the deposited data

Results flagged for a closer look

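Of 26 sets of 8 arrays examined (each member and 4 marker means, in each feeding group), 6 held 1 array whose gap to its nearest neighbour was too large a share of the group's range by Dixon's test at the 95% level. Chance gives such a gap in about 1 of 20 groups. In PRLR it was CON 7 in CON (6.15) and NOCON 1 in NOCON (7.52), with gaps of 0.72 and 0.76 of the range. In STAT5B it was the same arrays, CON 7 (5.38) and NOCON 1 (6.83), with gaps of 0.55 and 0.57. In JAK1 it was CON 7 (8.11, gap 0.59). The mean of the luminal epithelial markers on CON 7 (-0.59, gap 0.72) was the remaining one. Both arrays are among the 5 of low correlation. Endothelial markers (-1.58 and -1.06) and myoepithelial markers (-0.57 and -0.44) were also lowest on them, and their part in the members' values was not tested.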

How the results depend on the processing

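No member passed in any alternative run, by limma or by the exact test, and no list gene in any limma alternative. Each measured list gene, like each member, had 1 probe set, so probe set means left its difference unchanged. The adjusted exact test passed 0 of all 26773 probe sets on the 16 arrays, so its runs add little here. Of the 9 differences, PRLR turned to 0.0089 with array weights, 0.056 without the 5 arrays of low correlation and 0.0135 without CON 7. JAK1 turned to 0.0287 without the 5 and 0.0424 without CON 7, and STAT5A to 0.0181 with array weights and 0.0385 without the 5. Leaving out 1 array gave -0.39 to 0.01 for PRLR, -0.20 to 0.04 for JAK1, 0.19 to 0.40 for GHR, -0.46 to -0.10 for STAT5B and -0.17 to -0.11 for SOCS1. SOCS1 was dropped by the filter that keeps the brightest 60%. The count of called pairs, 15, was 0 without the 5 arrays and between 5 (without CON 7) and 15 when 1 array was left out; by rho, 16 in all, it was between 0 and 15, and 0 after quantile normalization. Without the 5, r turned to -0.0565 for PRLR with JAK2, -0.0354 for PRLR with STAT5A and -0.1607 for STAT5A with STAT5B. The count of called relations with marker means, 1, was 0 after median centring, 3 after quantile normalization, 0 with group means subtracted, 0 without the 5 arrays, and between 0 and 6 (without CON 8) when 1 array was left out; the cause was not tested.

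The labels do not say that replicate numbers pair heifers. Correlations of same-numbered arrays' deviations from the group means ran from -0.43 to 0.29, 2 of 8 were over 0.1, and 1 number was matched best by its own. With the number as a block, 4 probe sets were called in place of 16, 0 members among them, and the SOCS1 difference was -0.15 (limma adjusted p = 0.683).

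With 8 arrays a group, intervals of the 9 differences spanned 0.25 (SOCS1) to 1.28 (PRLR). Dim signals limit SOCS1 and GHR, since background was not separated from signal.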
